A study of Mus musculus with 4 samples.

Results

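Immediate early response genes were examined in RNA-seq libraries of tibial bone marrow from obese mice with and without treadmill exercise. The 10 genes are Fos, Fosb, Jun, Junb, Jund, Egr1, Ier2, Dusp1, Zfp36 and Nr4a1. They were picked by name as a fixed list, and the values of all annotated transcripts of a gene were added up. All 10 of the 10 were found among the 55401 genes of the libraries, and all 10 were among the 18596 genes with enough signal to be tested. Male wild-type C57/B6 mice aged 8 weeks were put on a high-fat diet (HFD), and after 6 weeks these obese mice were split into a group without training (Ob) and a group that also exercised (Ob + Exe), with 9 mice each. Ob + Exe mice ran on a treadmill at moderate intensity, 1 h per day on 6 days per week, and stayed on the HFD during these 12 weeks. Marrow samples that the study calls representative were sequenced, 2 per group, which gave 4 libraries. How these were chosen is not stated. Every mouse was obese and fed the HFD, so no lean mouse and no mouse on normal chow enters the comparison.

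Immediate early genes are transcribed within minutes of a stimulus such as a growth factor, a cytokine, mechanical load or handling of the tissue, without the need for new protein synthesis. Serum response factor (SRF) with its ternary complex partners and the cAMP response element binding protein (CREB) sit on their promoters in advance and are activated by MAP kinases and other kinases. Their messages are short-lived, since many carry AU-rich elements in the 3′ untranslated region that lead to rapid decay. Fos and Jun proteins pair into the transcription factor AP-1, which in bone and marrow is known for its roles in osteoclast formation and in myeloid cells.

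RefSeq promoters of the build GRCm38.p6 were given for 8 of the 10 genes, and Egr1 and Ier2 were not among them. The 250 bases before the RefSeq start were searched on both strands for 7 motifs, and positions are counted back from -1 at the base before the start. These were the full cAMP response element (CRE, TGACGTCA), its half-site (TGACG, also counted inside a full element), the AP-1 site (TGACTCA), the CArG box that SRF binds, the EGR site (GCGTGGGCG), the NR4A response element NBRE (AAAGGTCA) and a TATA box (TATAAA). The promoter of Fos is printed because Fos was the one gene of the 10 to be called, that of Nr4a1 because it held the most CRE half-sites, that of Dusp1 for its full CRE and that of Zfp36 for its CArG box. Matches are in capitals, and a half-site on the other strand reads CGTCA.

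Fos, chr12:85473640-85473889, plus strand: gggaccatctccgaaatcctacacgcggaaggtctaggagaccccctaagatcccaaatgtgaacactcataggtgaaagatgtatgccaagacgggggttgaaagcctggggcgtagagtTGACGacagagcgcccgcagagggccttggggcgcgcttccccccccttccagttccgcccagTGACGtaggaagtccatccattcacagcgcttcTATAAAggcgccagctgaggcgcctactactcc

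Nr4a1, chr15:101266596-101266845, plus strand: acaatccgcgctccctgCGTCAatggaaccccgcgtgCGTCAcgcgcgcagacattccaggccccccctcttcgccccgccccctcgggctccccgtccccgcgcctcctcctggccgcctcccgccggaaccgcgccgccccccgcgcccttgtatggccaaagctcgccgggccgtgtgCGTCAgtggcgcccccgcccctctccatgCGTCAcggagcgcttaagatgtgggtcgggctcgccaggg

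Dusp1, chr17:26508473-26508722, minus strand: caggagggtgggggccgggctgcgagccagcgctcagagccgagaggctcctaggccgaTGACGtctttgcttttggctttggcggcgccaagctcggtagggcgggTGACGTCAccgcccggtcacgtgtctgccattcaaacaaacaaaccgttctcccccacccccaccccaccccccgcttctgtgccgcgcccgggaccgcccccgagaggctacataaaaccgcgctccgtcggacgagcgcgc

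Zfp36, chr7:28379229-28379478, minus strand: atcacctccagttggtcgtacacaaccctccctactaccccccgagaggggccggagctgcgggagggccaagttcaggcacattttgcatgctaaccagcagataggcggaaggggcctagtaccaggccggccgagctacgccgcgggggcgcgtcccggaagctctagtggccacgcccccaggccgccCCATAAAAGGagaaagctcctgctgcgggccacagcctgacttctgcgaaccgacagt

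The Fos window held CRE half-sites that begin at -129 and -66 and a TATA box that begins at -33. The Nr4a1 window held 4 half-sites, all on the minus strand of the gene. The Dusp1 window held the full CRE at -143 and, counting that element on both strands, 3 half-sites. The Zfp36 window held its CArG box from -58 to -49. Of the others, Fosb and Junb each held 1 half-site, and Jun and Jund had no match to the letters of any of the 7 motifs in this window. The RefSeq start of Jund lies upstream of the start of the transcript quantified here, so its window is not the stretch next to that transcript. Among 32851 RefSeq promoters of the same length, 17.8% held a half-site, 1.55% the full CRE, 1.47% a CArG box and 12.4% the TATA box. No window of the 8 held the AP-1 site (4.46% of all promoters), the EGR site (0.536%) or the NBRE (1.34%). A match is a description of the letters and not a measured binding site.

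The other end of the messages was read from the GENCODE vM21 annotation of the same build, in which the highest transcript of 9 of the 10 genes had an annotated 3′ untranslated region and that of Ier2 was not matched. The core of an AU-rich element, ATTTA in DNA letters, occurred 4.91 times per kb in Fos, 5.80 in Dusp1, 5.52 in Nr4a1, 4.12 in Junb, 3.88 in Zfp36 and 3.24 in Jun. Jund with 1.88, Egr1 with 1.64 and Fosb with 0.466 per kb were lower. The median of the 9 genes was 3.88 per kb, beside 1.21 per kb over 12557 tested genes with such a region. The longer form TATTTAT was present in 6 of the 9 genes and in 28.2% of all genes. Zfp36 itself encodes tristetraprolin, a protein that binds such elements and hastens the decay of the message, its own included. One site of 30 bases is printed for each of 4 genes, with ATTTA in capitals.

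Fos, chr12:85477101-85477130, plus strand: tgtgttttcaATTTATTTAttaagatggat

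Dusp1, chr17:26506156-26506185, minus strand: gctggtccttATTTATTTAacacccccctc

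Zfp36, chr7:28376958-28376987, minus strand: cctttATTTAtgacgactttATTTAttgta

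Nr4a1, chr15:101274702-101274731, plus strand: ATTTAtatttgtgtattttcctggATTTAt

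Fos and Dusp1 held overlapping repeats of the core, whereas Zfp36 and Nr4a1 held spaced ones. The genes were also compact. The highest transcript had at most 4 exons in 90.0% of the 10 genes, beside 43.3% of all genes tested and 24.2% of the 13525 protein-coding ones. Jun, Junb, Jund and Ier2 had a single exon, and Nr4a1 with 7 exons was the exception.

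Values are FPKM, the fragments assigned to a gene per kilobase of transcript and relative to the fragments of the library, scaled between libraries so that the typical gene has the same level in each. The values rest on 53.0 and 50.4 M read equivalents for Ob and 44.3 and 46.7 M for Ob + Exe, where a read equivalent is the coverage of a transcript times its length divided by the read length of 150 bases. Scaling factors ranged from 0.945 to 1.04, and from 12080 to 12547 genes reached 1 FPKM. The labels give the tissue as bone marrow and, at odds with that, a cell line (mesenchymal stem cells) and a cell type (fibroblast). The libraries were led by other cells. Summed FPKM of 12 neutrophil markers was from 28785 to 68003 and that of 10 erythroid markers from 43257 to 67426. The 13 mesenchymal and fibroblast markers summed to 128 to 194. In whole marrow, fewer cells of a type and less RNA per cell cannot be told apart. The labels give replicate numbers without saying more on their source, so p values measure the spread between these libraries.

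In the libraries as a whole, Jund was the highest of the 10 genes with a mean level of 94.96 FPKM, followed by Ier2 with 72.5. The ranges of these neighbours overlapped. Dusp1 (29.5), Zfp36 (22.6) and Junb (19.8) formed a middle group whose ranges overlapped from one to the next, all of them below Ier2 in every library. Fos (10.4) and Nr4a1 (7.32) came next and also overlapped. Jun (2.59), Egr1 (1.25) and Fosb (0.119) followed in an order that held between any pair of neighbours over the 4 libraries. The level of Fos thus lay well under that of Jund, while Fosb was close to the limit of what was kept. The summed level of the 10 genes was 252 and 274 FPKM in Ob against 239 and 280 FPKM in Ob + Exe, so the total overlapped between the groups. Jund and Ier2 together held 66.7% ± 0.478 (SD, n = 2) of this total for Ob and 61.8% ± 5.31 (SD, n = 2) for Ob + Exe.

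**Figure D1:**
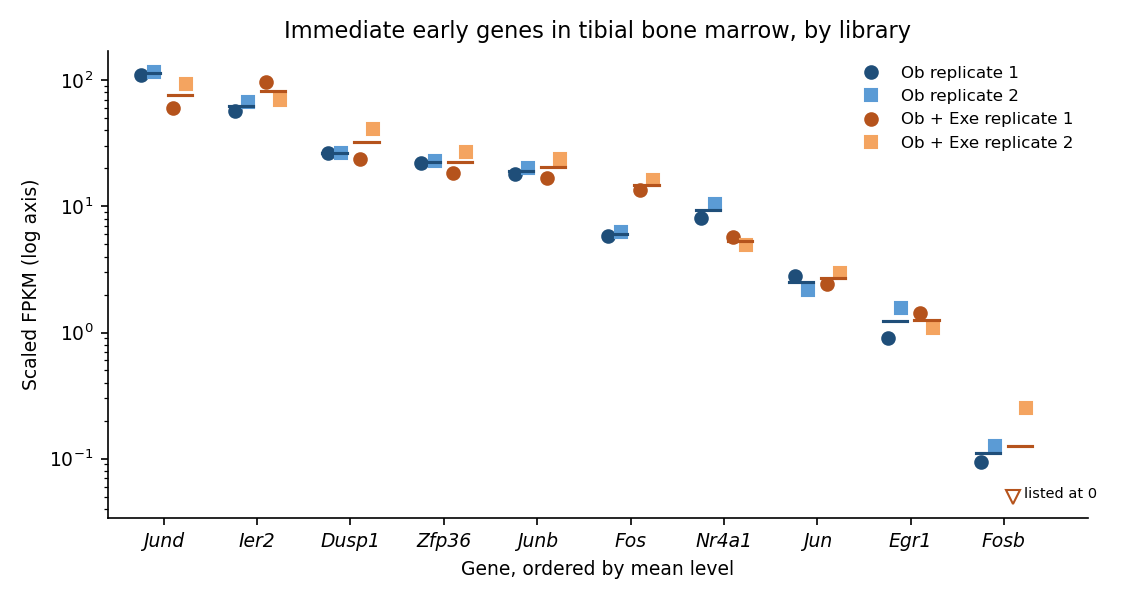
Scaled FPKM of the 10 immediate early response genes on a log axis, with 1 point per library (2 Ob, 2 Ob + Exe) and a bar at the mean of each group. Fos lies between 5.80 and 6.25 in Ob and between 13.5 and 16.2 in Ob + Exe, and 6 of the 10 genes overlap between the groups. The open triangle is Fosb listed at 0.

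Levels were compared between Ob + Exe and Ob with limma on log2(FPKM + 0.1) over all tested genes, a scale that understates the fold change of low genes. The thresholds of the study were kept, so a gene counts as called where unadjusted p is under 0.05 while its log2 fold change exceeds 1 in either direction. Of the 10 genes, 1 was called, Fos, which was higher in Ob + Exe. Over all genes, 3.74% were called, 1.0% as higher and 2.74% as lower. Unadjusted p was under 0.05 for Fos and for Nr4a1, which was lower, beside 5.05% of all genes (1.58% higher and 3.48% lower). Benjamini-Hochberg adjusted p from limma was under 0.05 for 0 of the 18596 genes, with 940 at an unadjusted p under 0.05 and a smallest adjusted p of 0.738. With limma voom on read equivalents it was also under 0.05 for 0 genes. Both Ob + Exe libraries lay above both Ob libraries for Fos and Ier2, and below them for Jund and Nr4a1. Such a separation was found for 32.6% of all genes, 14.3% upward and 18.3% downward. Log2 fold changes were positive for 6 of the 10 genes and negative for 4, with a median of 0.06 beside -0.02 over all genes. The 10 genes did not move as a block in one direction.

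**Figure D2:**
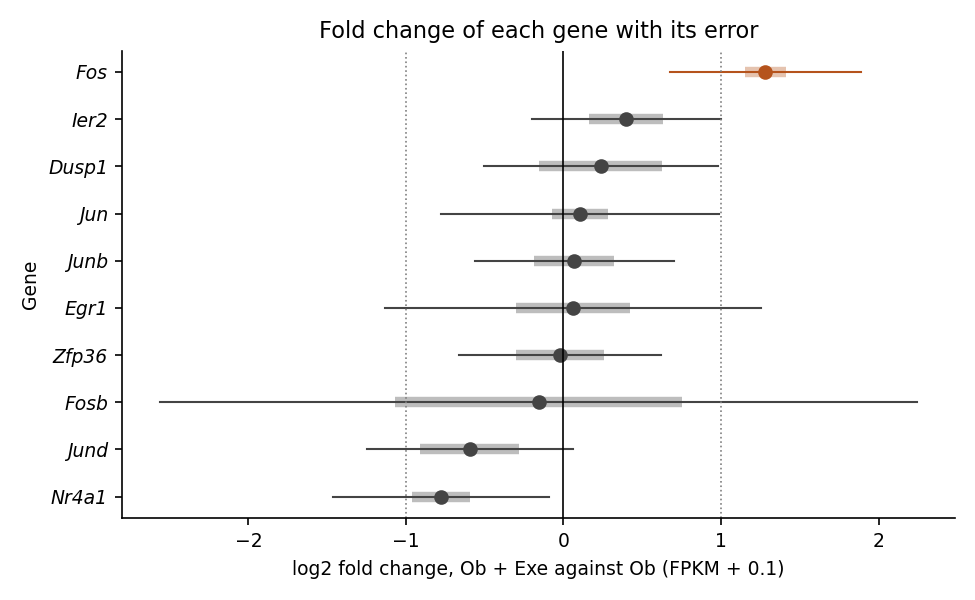
Log2 fold change of each of the 10 genes, Ob + Exe against Ob, with its 95% interval from limma (thin line) and the range over fits that leave out 1 library each (thick line). Dotted lines mark a log2 fold change of 1 in either direction, and Fos, the called gene, is coloured. The interval of Fos lies above 0, that of Nr4a1 below 0, and the intervals of the other 8 genes include 0.

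Fos (ENSMUSG00000021250.13) encodes the Fos subunit of AP-1 and lies on chr12:85473890-85477273 of GRCm38, plus strand, with no overlapping gene in the files. It reached 5.80 and 6.25 FPKM in the Ob libraries against 13.5 and 16.2 in the Ob + Exe libraries. Both libraries from exercised mice lay far above both others, and the libraries within a group were close. The mean was 6.02 ± 0.315 (SD, n = 2) for Ob and 14.8 ± 1.89 (SD, n = 2) for Ob + Exe, a ratio of 2.46. The log2 fold change was 1.28 (standard error 0.245), which gave an unadjusted p of 0.0022 and an adjusted p of 0.941 in limma. By p value Fos ranked 37 among the 18596 genes, and its 95% interval covered a fold of 1.597 to 3.70. The values came from 831 and 863 read equivalents in Ob against 1613 and 1864 in Ob + Exe, so the higher levels came from the libraries of smaller depth. The Fos call was made under each of the 15 other settings tried, with a log2 fold change from 1.15 to 1.41, while the adjusted p ranged from 0.145 to 0.995. The 4-exon coding transcript carried from 93.8% to 99.7% of the FPKM of Fos in every library.

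Markers of muscle and of myeloid cells were followed in the same libraries. Of 8 skeletal muscle genes 5 were tested, and all 5 had a positive log2 fold change. The summed FPKM of the list was 10.9 and 7.40 in Ob against 15.7 and 14.6 in Ob + Exe, with 1 gene, Acta1, called as higher, beside 1.0% of all genes (2.57 and 0.993 against 4.60 and 5.27 FPKM) and Myh2 at 0 in each library. The summed neutrophil markers were 50875 and 28785 in Ob against 37403 and 68003 in Ob + Exe, which overlapped, although 11 of the 12 genes had a positive log2 fold change and none was called. Monocyte and macrophage markers summed to 505 and 453 in Ob against 440 and 513 in Ob + Exe. The part of any of these cells in the level of Fos was not tested.

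Fosb, the closest relative of Fos, was at the lower limit of detection. It was listed at 0.0946 and 0.126 FPKM in Ob against 0 and 0.254 in Ob + Exe, which amounts to 24.4, 32.0, 0 and 52.6 read equivalents. The groups overlapped and the log2 fold change of -0.16 had a standard error of 0.973, so no difference was detectable at this depth. Of 7 annotated Fosb transcripts, the 4-exon transcript was the 1 with a value above 0.

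The Jun proteins are the partners of Fos in AP-1 and can also pair with each other. Jun, the classical member, was low, with 2.81 and 2.18 FPKM in Ob against 2.42 and 2.95 in Ob + Exe. These values overlapped, and the log2 fold change was 0.10 (standard error 0.357). The kit did not mark the strand, and the antisense gene Junos overlaps Jun, so reads of one cannot be told apart from reads of the other in the shared stretch. Junos was at 3.10 and 3.11 FPKM in Ob against 5.18 and 4.38 in Ob + Exe (log2 fold change 0.60, not called). Junb, a Jun protein that often restrains the activity of Jun, had 18.2 and 20.2 FPKM in Ob against 16.9 and 24.0 in Ob + Exe, with the Ob values inside the range of the Ob + Exe values. Its log2 fold change was 0.07 (standard error 0.256). Prdx2, on the other strand, overlaps an exon of Junb in GENCODE vM21 but not in the annotation used for the levels. Prdx2 was at 690 and 866 FPKM in Ob against 1007 and 881 in Ob + Exe (log2 fold change 0.28, not called).

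Jund, the Jun gene with the steadiest expression in most tissues, was the most abundant of the 10. Its level was 110 and 116 FPKM in Ob against 60.2 and 93.1 in Ob + Exe, so both exercise libraries lay lower but differed from each other by more than the Ob libraries did. The mean was 113 ± 4.38 (SD, n = 2) against 76.7 ± 23.3 (SD, n = 2). With a log2 fold change of -0.60 (standard error 0.264, unadjusted p = 0.0669 and adjusted p = 0.959 in limma), Jund was not called. Without Ob + Exe replicate 1 the log2 fold change was -0.28, and without Ob + Exe replicate 2 it was -0.91. Jund lies on chr8:70698949-70700616, plus strand. The small gene Gm11175 lies across Jund on the other strand, but was at 0.531 FPKM or less in each library.

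The make-up of the 5 Fos and Jun genes was compared within each library, where scaling between libraries plays no part. Fos made up 4.23% and 4.30% of their summed FPKM in Ob against 14.5% and 11.8% in Ob + Exe. The share of Jund was 80.4% and 80.2% in Ob against 64.8% and 68.2% in Ob + Exe. Both shares were nearly the same in the 2 Ob libraries, and each group difference was larger than the spread between replicates. Junb held 13.3% and 13.9% in Ob against 18.1% and 17.6% in Ob + Exe, also without overlap, although its level overlapped between the groups. Jun held no more than 2.60% in any library. Summed Jun, Junb and Jund amounted to 22.6 and 22.2 FPKM per FPKM of Fos in Ob against 5.89 and 7.43 in Ob + Exe. Among the Jun genes, Jund stood at 6.06 and 5.75 times the level of Junb in Ob against 3.57 and 3.89 times in Ob + Exe. With 2 libraries against 2, an exact permutation test on any such share cannot give a two-sided p below 0.333, which is the value for each of them that separated. The shares of one library add up to a whole, so they are not independent of each other.

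**Figure D3:**
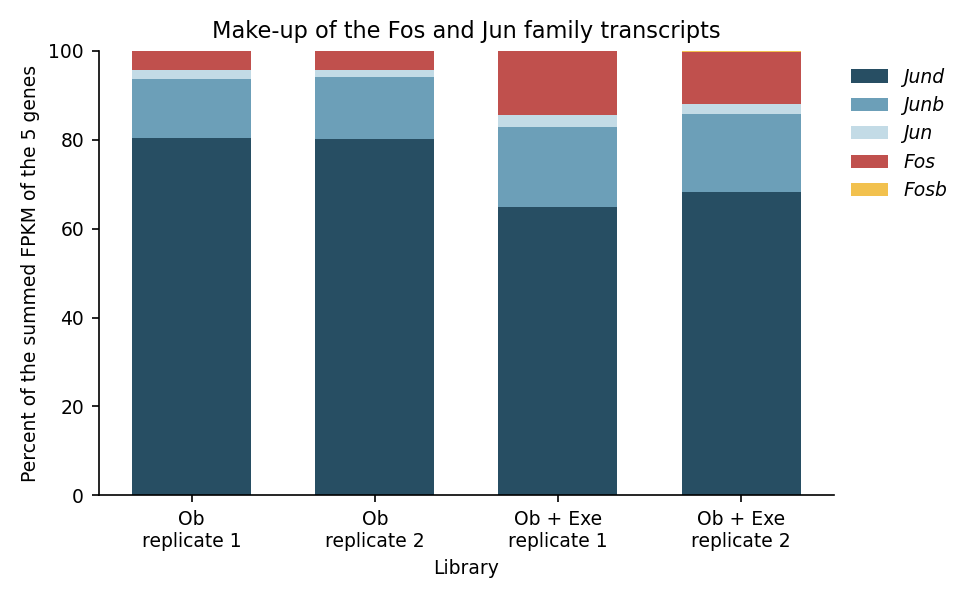
Percent of the summed FPKM of Jund, Junb, Jun, Fos and Fosb held by each gene in each of the 4 libraries, as stacked bars. The Fos part is 4.23% and 4.30% in Ob against 14.5% and 11.8% in Ob + Exe, and the Jund part is 80.4% and 80.2% against 64.8% and 68.2%.

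Egr1 and Nr4a1 encode transcription factors outside the AP-1 family. Egr1, a zinc finger protein that growth factors and mechanical load are known to induce, had 0.911 and 1.57 FPKM in Ob against 1.44 and 1.09 in Ob + Exe. The Ob libraries spanned the others, and the log2 fold change was 0.06 (standard error 0.484). Egr1 did not separate in the libraries in which Fos did. Fos per Egr1 was 6.36 and 3.99 in Ob against 9.39 and 14.8 in Ob + Exe.

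Nr4a1 encodes the orphan nuclear receptor Nur77, which is known for its role in monocytes and in the response of lymphocytes to antigen. The gene spans chr15:101254269-101274795 on the plus strand with no overlapping gene. Its level was 8.09 and 10.5 FPKM in Ob against 5.75 and 4.94 in Ob + Exe, so both exercise libraries were lower. The mean was 9.29 ± 1.70 (SD, n = 2) for Ob and 5.35 ± 0.573 (SD, n = 2) for Ob + Exe, so the Ob mean was 1.74 times the other. The log2 fold change of -0.78 (standard error 0.278, unadjusted p = 0.0325 and adjusted p = 0.959 in limma) stayed within 1, so Nr4a1 was not called. Its 95% interval covered a fold of 0.363 to 0.939. Leaving out 1 library at a time moved the log2 fold change between -0.96 and -0.59, and over all 15 alternatives the unadjusted p in limma was from 0.0137 to 0.163. The order of Fos and Nr4a1 was exchanged between the groups. Nr4a1 stood at 1.39 and 1.68 times the level of Fos in Ob against 0.427 and 0.306 times in Ob + Exe.

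Markers of other marrow cell types were followed in the same libraries, and each one called was lower in Ob + Exe. The share called was 25.0% of B cell, 16.7% of osteoblast, 16.7% of megakaryocyte and 7.69% of mesenchymal and fibroblast markers. Over all genes it was 3.74%, with 2.74% called as lower. Summed B cell markers were 199 and 207 FPKM in Ob against 159 and 126 in Ob + Exe, with 7 of 8 genes at a negative log2 fold change and 2, Cd79a and Igll1, called as lower, beside 2.74% of all genes. Those of endothelium were 18.3 and 17.1 against 13.8 and 11.8, with 6 of 6 negative and none called. Osteoblast markers summed to 15.1 and 23.2 against 13.7 and 13.8, with 5 of 6 negative and 1, Bglap2, called. Megakaryocyte markers overlapped in sum, with 456 and 332 against 371 and 139, while 6 of 6 were negative and 1, Gp1bb, was called. T and NK cell markers overlapped, with sums of 63.0 and 35.8 against 64.8 and 45.3, 4 of 6 positive and none called. The monocyte and macrophage sums given above also overlapped, with 3 of 8 positive and none called. Mesenchymal and fibroblast markers summed to 134 and 186 against 128 and 194, which overlapped. Of these 13 genes 7 were positive and 1, Col1a1, was called as lower. Erythroid sums were 59731 and 55069 against 43257 and 67426, which overlapped, with 8 of 10 negative and none called. No marker of these lists was at 0 in all libraries, and the called markers are named after their values were seen. Their part in the levels of Nr4a1 and Jund was not tested.

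Ier2, a small nuclear protein induced by growth factors, had 57.0 and 67.4 FPKM in Ob against 96.3 and 69.5 in Ob + Exe. Both exercise libraries lay above, but the second of them by little. The mean was 62.2 ± 7.38 (SD, n = 2) against 82.9 ± 19.0 (SD, n = 2), and the log2 fold change of 0.40 (standard error 0.243, unadjusted p = 0.154 and adjusted p = 0.959 in limma) was not called. Without Ob + Exe replicate 1 it was 0.16.

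Dusp1 and Zfp36 shut the response down, Dusp1 as a phosphatase that inactivates MAP kinases and Zfp36 through the decay of AU-rich messages. Dusp1 was at 26.6 and 26.4 FPKM in Ob against 23.8 and 41.0 in Ob + Exe. The Ob libraries were nearly equal and lay inside the range of the others. Its log2 fold change was 0.24 (standard error 0.301), and it was 0.63 without Ob + Exe replicate 1 and -0.15 without Ob + Exe replicate 2, so 1 library decides its sign. Ergic1, on the other strand, was at 4.45 to 6.70 FPKM and overlaps Dusp1 only at annotated transcripts that were listed at 0 in each library. Zfp36 was at 22.1 and 23.0 FPKM in Ob against 18.3 and 26.9 in Ob + Exe, with a log2 fold change of -0.02 (standard error 0.259). For Zfp36 the 95% interval of the fold was 0.632 to 1.53, so a change of the size of that of Fos in the whole gene lies outside it.

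The transcripts of Zfp36 (chr7:28376784-28380253, minus strand) separated the groups, whereas their sum did not. A 2-exon transcript of 2790 bases and a 1-exon transcript of 2465 bases were assigned reads. The 1-exon transcript runs through the 680-base intron of the other, chr7:28378494-28379173, and starts inside the promoter window printed above, whereas the 2-exon transcript starts further upstream. The 1-exon transcript held 8.86% and 12.1% of the FPKM of Zfp36 in Ob against 31.6% and 35.4% in Ob + Exe. Its level was 1.96 and 2.77 FPKM in Ob against 5.78 and 9.53 in Ob + Exe, and that of the 2-exon transcript was 20.2 and 20.2 against 12.5 and 17.4. Neither transcript overlapped between the groups in level or in share. The difference in share exceeded the spread between replicates (two-sided p = 0.333 in an exact permutation test, which 4 libraries cannot go below). The shares of both transcripts add up to a whole, so they are not independent. At the level of whole genes, 32.6% of all genes separated the groups, and the percentage among all transcripts was not determined. The antisense gene Gm44710 overlaps Zfp36 and was at 1.26 FPKM in Ob replicate 1 and at 0 in the other libraries. Intron-bearing transcripts of other members differed less uniformly. The retained-intron transcripts of Dusp1 were at 8.90% and 14.1% of its FPKM in Ob against 3.89% and 8.24% in Ob + Exe for the one, and at 8.69% and 2.68% against 9.82% and 5.35% for the other, so the one was lower in Ob + Exe and the other overlapped. That of Nr4a1 was at 7.70% and 6.24% in Ob against 17.0% and 9.11% in Ob + Exe, a separation upward in share, while its level overlapped. The split of reads among transcripts of one gene is an estimate by the quantification program from coverage that the transcripts share.

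Nr4a1 had a split that differed in Ob + Exe replicate 1, and the cause of this was not tested. Its 7-exon transcript, which begins right after the promoter printed above, held 75.4% and 85.9% in Ob and 77.9% in Ob + Exe replicate 2, but was listed at 0 in Ob + Exe replicate 1. There the 8-exon transcript, which begins further upstream, held 83.0%, beside 2.62% to 12.95% in the other libraries. The transcripts share all exons of the first but its opening one, and the summed level of the gene in that library was close to that in the other Ob + Exe library. A comparison of the highest transcript alone would give Nr4a1 a log2 fold change of -3.61, and Zfp36 one of -0.50. Of the 29 annotated transcripts of the 10 genes, 17 reached a mean of 0.1 FPKM and 11 were at 0 in each library.

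**Figure D4:**
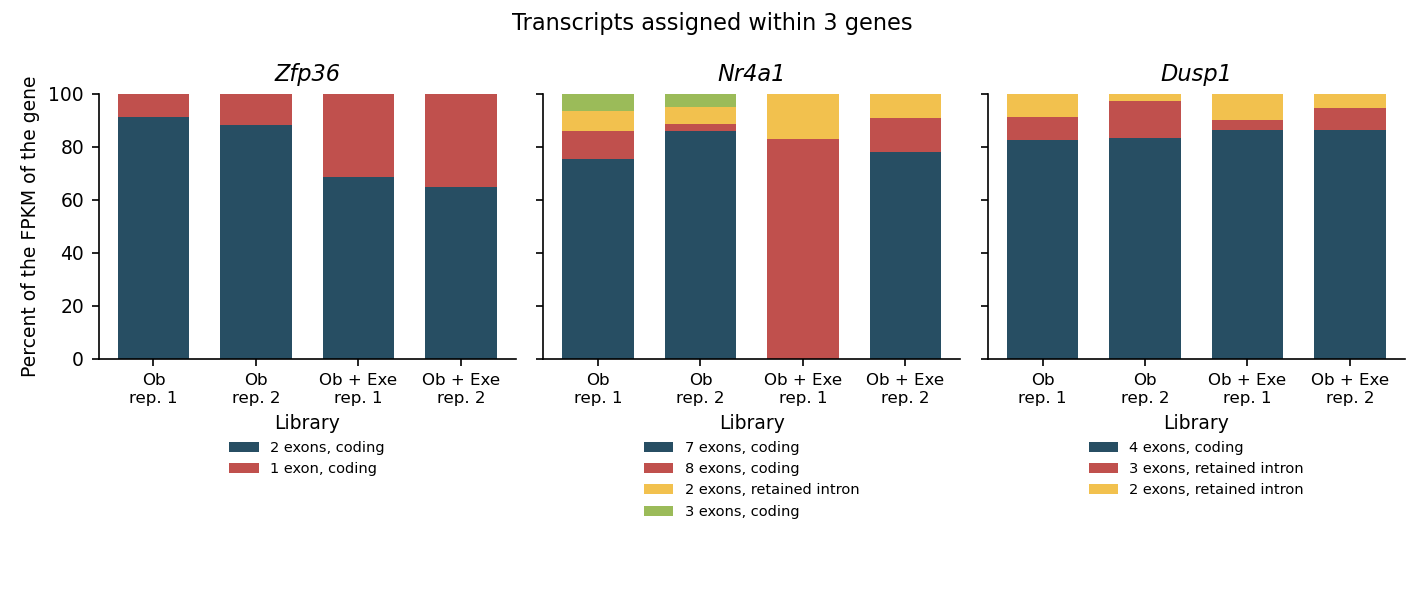
Percent of the FPKM of Zfp36, Nr4a1 and Dusp1 assigned to each annotated transcript in each of the 4 libraries. The 1-exon transcript of Zfp36 is at 8.86% and 12.1% in Ob against 31.6% and 35.4% in Ob + Exe, and the 7-exon transcript of Nr4a1 is at 0 in 1 of the 4 libraries.

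Genes around the 10 were followed in 8 lists of relatives, regulators and other rapidly induced genes, 128 genes in all, of which 121 were tested. A positive log2 fold change was found for 68 and a negative one for 53, and 2 were called, or 1.65% beside the 3.74% of all genes. In the lists with none called, unadjusted p in limma was under 0.05 for Fosl2 and Map2k1 and for no other gene, and limma voom called Dusp4 and Mrtfb. The AP-1 and small Maf relatives lay toward higher levels, with 10 of 13 tested genes positive and a median log2 fold change of 0.27, and none was called. Fosl2, which encodes the Fos protein Fra-2, had 11.1 and 9.44 FPKM in Ob against 15.6 and 23.0 in Ob + Exe (log2 fold change 0.88, unadjusted p = 0.0201 and adjusted p = 0.959 in limma). Atf3, a stress-induced partner of Jun, had 1.47 and 2.33 against 4.26 and 2.88 FPKM (log2 fold change 0.88, not called). Both are named for having the smallest p of the list. Over the 13 tested genes, 6 separated the groups upward (14.3% of all genes did) and 1 downward (18.3%), while the other 6 overlapped, and Fosl1 was at 0 in each library. Summed over the list, the level was 138 and 149 FPKM in Ob against 169 and 183 in Ob + Exe. The genes of the MAP kinase cascades also separated upward in sum, with 705 and 691 against 767 and 770 FPKM. Of these 27 tested genes, 8 separated upward and 4 downward. Among 39 other rapidly induced genes 11 separated upward and 9 downward, and among 8 heat shock genes 3 and 0. The sums of the remaining lists overlapped.

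Relatives of Egr1 and Nr4a1 and their NAB co-repressors gave 2 positive and 3 negative log2 fold changes, with a median of -0.08 and none called. Nab2, a co-repressor of EGR proteins that they induce themselves, was at 1.39 and 1.99 FPKM in Ob against 0.522 and 1.03 in Ob + Exe (log2 fold change -1.07, not called). Egr2 was low, with 0.278 and 0.127 against 0.663 and 0.592 FPKM (log2 fold change 1.31, not called). The other IER genes and Zfp36 paralogs were 3 positive and 2 negative with none called, and the groups overlapped for Ier3 (log2 fold change 0.18) and Ier5l (-0.87).

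The other MAP kinase phosphatases gave 3 positive and 6 negative log2 fold changes with a median of -0.30, and none of the 9 was called. Dusp2 was at 8.71 and 11.9 FPKM in Ob against 7.34 and 7.20 in Ob + Exe (log2 fold change -0.48), and Dusp4 was at 0.214 and 0.291 in Ob and listed at 0 in both Ob + Exe libraries. The kinases of the cascades themselves were 18 positive and 9 negative with a median of 0.13 and none called. Map2k1, the MAP kinase kinase MEK1, had 25.3 and 22.9 FPKM in Ob against 36.8 and 35.8 in Ob + Exe (log2 fold change 0.59, unadjusted p = 0.0264 and adjusted p = 0.959 in limma). Mapkapk3, a kinase downstream of p38, had a log2 fold change of 0.46. The factors on the promoters, SRF, the ternary complex factors, CREB and their cofactors, were 6 positive and 9 negative with a median of -0.03 and none called. Their extremes by p were Mrtfb (log2 fold change 0.90) and Mef2c (-0.22).

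Of 39 tested other rapidly induced genes, 20 were positive and 19 negative, with a median of 0.08. The 1 called was Ccn1, a matricellular protein of mechanically loaded cells, which was at 0.627 and 1.11 FPKM in Ob and listed at 0 in both Ob + Exe libraries, from 86.5 and 150 read equivalents in Ob. Klf4, a transcription factor of monocytes, had 9.35 and 10.2 FPKM in Ob against 5.16 and 5.50 in Ob + Exe (log2 fold change -0.87, unadjusted p = 0.0143 and adjusted p = 0.959 in limma). The inducible heat shock genes were 6 positive and 2 negative with a median of 0.36. Hspb1, a small heat shock protein, was called as higher, with 0.659 and 0.149 FPKM in Ob against 1.43 and 1.84 in Ob + Exe (log2 fold change 1.99). Its lowest value rests on 9.28 read equivalents. Neither Ccn1 nor Hspb1 was called with a pseudocount of 1, and limma voom did not call Hspb1. Hsph1, a co-chaperone, had 7.38 and 6.07 against 12.7 and 11.7 FPKM (log2 fold change 0.85, unadjusted p = 0.0149 and adjusted p = 0.959 in limma).

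**Figure D5:**
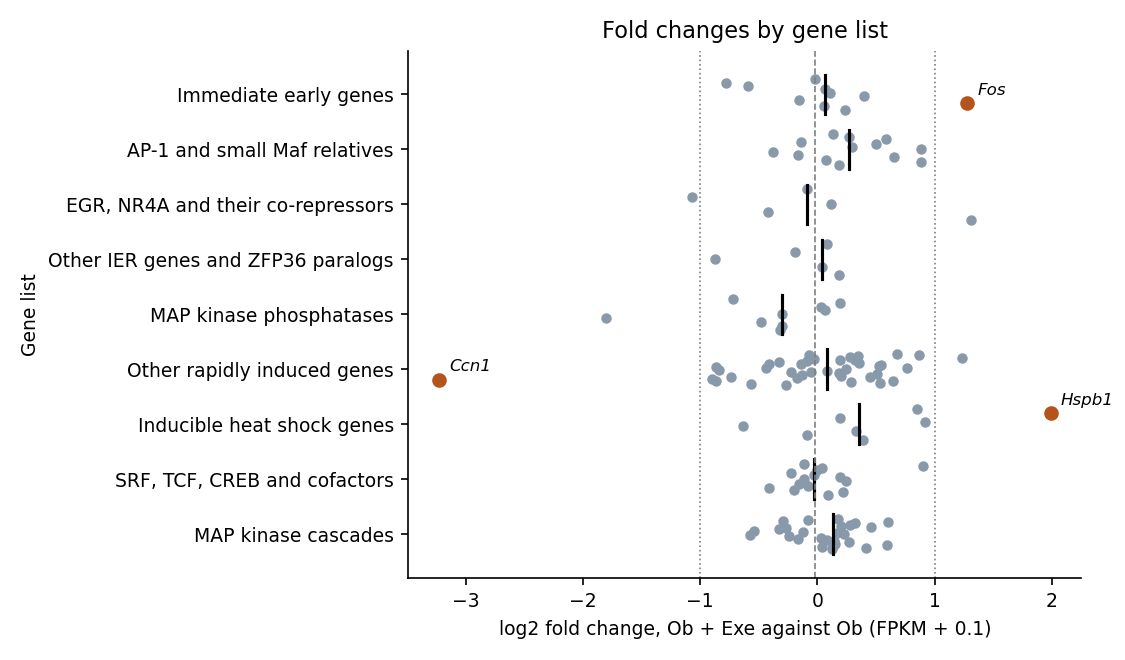
Log2 fold change, Ob + Exe against Ob, of the 10 genes and of each tested gene of the 8 lists, 1 point per gene, with a bar at the median of each list, a dashed line at the median of all genes and dotted lines at a change of 1 in either direction. Called genes are coloured and named, and Ccn1 is listed at 0 in both Ob + Exe libraries. The medians lie between -0.30 for the MAP kinase phosphatases and 0.36 for the inducible heat shock genes, and that of the 10 genes is 0.06.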

How the data were processed

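Poly-A RNA of 2 Ob and 2 Ob + Exe marrows was sequenced. Per the labels and the study's methods, the authors used fastp, HISAT2 against GRCm38, SAMtools and StringTie with GENCODE vM25, and DESeq2 for their own test (versions are not given in the sources used here). The authors deposited coverage, a signal not normalized for depth, and FPKM per transcript. Coverage does not give whole reads, so limma replaced a count test. Transcript FPKM were summed per gene, genes with a mean of at least 0.1 FPKM were kept, libraries were scaled by median-of-ratios factors, and log2(FPKM + 0.1) was fitted over all genes with limma 3.58.1 in R 4.3.3 (lmFit, eBayes with an intensity trend) and Benjamini-Hochberg adjustment. The fit was tested on simulated data. Python 3.11.15, pandas 2.3.3 and matplotlib 3.10.9 were used for tables and figures. GENCODE vM21, of the same build, gave exons and untranslated regions, and RefSeq gave promoters.

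The 10 genes, and from each list the called genes or, with fewer than 2 called, the 2 with the smallest p, are named. The genes and lists were chosen with earlier results of these data known. Alternatives were another filter, pseudocount, scaling or model, the replicate block, the highest transcript and leaving out each library. The crossed pairing was added after seeing the data.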

Additional observations from a re-analysis of the deposited data

How the results depend on the processing

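With 2 libraries per group, the number of libraries limits the precision, and no adjusted p in limma passed 0.05 for any of the 10 genes under any setting. The count of 1 called gene of the 10, Fos, was the same under all 15 alternatives. Over all genes, 696 were called in the fit reported, 270 with a minimum mean FPKM of 1, 222 with a pseudocount of 1, 450 with limma voom on read equivalents, 1060 without the intensity trend, and 744 to 1920 (1260 without Ob + Exe replicate 1 and 1920 without Ob + Exe replicate 2) with 1 library left out. Of the list genes, 2 were called in the fit reported, 0 with the minimum of 1 and with the pseudocount of 1, 4 with voom and without the trend, 6 with the highest transcript alone, and 2 to 6 with 1 library left out. Signs changed for genes whose fold change was within its error. Fosb was at 0.0121 with a pseudocount of 1 and 0.54 under quantile normalization, and without scaling Junb was at -0.0199 and Egr1 at -0.0212. With 1 library left out the log2 fold change ranged from -0.18 to 0.32 for Junb, from -0.30 to 0.42 for Egr1, from -0.0733 to 0.28 for Jun, from -0.30 to 0.25 for Zfp36, from -1.07 to 0.75 for Fosb and from -0.15 to 0.63 for Dusp1. The difference between replicates 1 and 2 in Ob correlated with that in Ob + Exe at -0.106 across genes (-0.235 at a mean of at least 1 FPKM). This correlation cannot show whether equal numbers mark a pairing or a shared batch, and the labels do not say. With the replicate block 742 genes were called, 1 of the 10 and 2 of the list genes, and with the crossed pairing 803, 1 and 2. Adjusted p was under 0.05 for 18 genes with the block and for 11 with the crossed pairing, none of them among the 10. The cause of these differences was not tested. Fosb was not tested with the minimum of 1.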

Other observations

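The 5 genes whose levels over the 4 libraries were nearest to the mean profile of the 10 genes, among 12400 other genes with a mean of at least 1 FPKM, were Oma1, Sh3yl1, 2610020C07Rik, Srsf3 and Dennd4a. Nearness is the Euclidean distance between log2 values centred over the libraries, and it was 0.0373 for Oma1 and 0.0560 for Dennd4a. The mean profile itself was -0.11 and 0.05 in Ob against -0.16 and 0.22 in Ob + Exe, which separates the replicates of Ob + Exe more than the groups. Fosb, near the limit of detection, had the largest deviations in the Ob + Exe libraries, with -0.99 and 0.83, and so weighed most on this mean. Oma1, a protease of the inner mitochondrial membrane, had 4.32 and 4.98 FPKM in Ob against 4.27 and 5.45 in Ob + Exe. Srsf3, a splicing factor, had 143 and 156 against 133 and 180 FPKM. None of the 5 was called.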
